A study of Mus musculus with 6 samples.

Results

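Bone morphogenetic protein (BMP) signalling was examined through 10 genes: the ligands Bmp2, Bmp4 and Bmp7, the receptors Bmpr1a, Bmpr1b and Bmpr2, the secreted antagonist Nog, the decoy receptor Bambi, and the inhibitory SMADs Smad6 and Smad7. They were chosen by name out of the 32493 genes in the count table, and all 10 have a row there. RNA-seq was performed on neural stem cells (NSCs) obtained from the lateral ventricles of mouse embryos at E14.5 and grown for 3 generations in a B27-supplemented medium with EGF and bFGF. The ctrl cells were homozygous for the floxed miR-151 allele (fl/fl) and Cre-negative, and the labels call them wt. The cko cells carried the same fl/fl alleles with Emx1-IRES-Cre, which is active in the dorsal telencephalon. Both genotypes were on the C57BL/6J background, so the floxed allele and the culture conditions were common to them. The paper describes the cko and ctrl animals as littermates, but the labels do not give the litter of each library. By RT-qPCR, the paper reports significantly lower expression of a mature miRNA from miR-151 in E14.5 cko NSCs than in ctrl NSCs. Cre from Emx1 does not reach every cell that borders the ventricles. The share of cultured cells that had lost miR-151 was not measured in these libraries, where no row of the table matches the miRNA gene.

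Counts were available for 2 ctrl libraries (replicates 1 and 3) and 3 cko libraries, with 17883796 to 23335736 counts each. The column deposited as ctrl replicate 2 equals the mean of the other two ctrl columns, rounded up, in 32493 of 32493 genes, so it was counted in no n. Levels below are normalized CPM, each count divided by its library's scaled total, and a count of 3 corresponded to 0.128 to 0.168 CPM. A gene was called changed at an edgeR quasi-likelihood p under 0.05 after Benjamini-Hochberg adjustment over the 16710 tested genes. The labels do not say whether the libraries came from separate embryos or cultures, so each p measures the spread between these libraries, which may be technical. All 10 of the NSC markers checked had enough counts to be tested, and Sox2, a transcription factor of neural progenitors, stood at 556 to 625 CPM in every library.

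BMPs are secreted dimers of the TGF-beta superfamily that bring together type II and type I serine/threonine kinase receptors. The type I receptor phosphorylates SMAD1, SMAD5 and SMAD9, which enter the nucleus with SMAD4 and switch on targets such as the Id genes. In the embryonic cortex, BMPs come from the dorsal midline and the meninges, and in cultured neural progenitors they favour the astrocyte fate over the oligodendrocyte fate.

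Of the 10 genes, 9 had enough counts to be tested, and Bmp4 was the 1 called, lower in cko. Bmp4 passed the filter on low counts only through the ctrl libraries, and its call was lost without cko library 2 or cko library 3 (edgeR adjusted p = 0.0578 and 0.0561). As background, 8.57% of all tested genes were called lower in cko and 7.86% higher. No member was called higher by edgeR, where 1 had an unadjusted p under 0.05 (Bmpr2). DESeq2 called 0 members in either direction, with 1 higher and 2 lower at an unadjusted p under 0.05, and gave no adjusted p for Bmp4 and Bmp2. With the threshold that the study set on DESeq2 values, a log2 change beyond 0.9 with an unadjusted p under 0.01, applied here to the edgeR values, 1 member (Bmp4) was lower, against 4.17% of all tested genes. The fold changes of the 9 tested members lay above 0 for 5 and below 0 for 4, with a median log2 change of 0.08 beside 0.00 over all tested genes.

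RefSeq windows of GRCm38.p6 held the bases before at least 1 RefSeq start of 5 of the 10 members. The 250 bases before the start are shown for Bmp4, the ligand whose RNA was called lower, and for Bmpr1a and Bmpr1b, the paired type I receptors whose ratio is given below. Capitals mark GGCGCC, a GC-rich element of BMP-responsive promoters, which reads the same on both strands. Each is printed 5′ to 3′ on the strand of its gene.
Bmp4, chr14:46390670-46390919, minus strand: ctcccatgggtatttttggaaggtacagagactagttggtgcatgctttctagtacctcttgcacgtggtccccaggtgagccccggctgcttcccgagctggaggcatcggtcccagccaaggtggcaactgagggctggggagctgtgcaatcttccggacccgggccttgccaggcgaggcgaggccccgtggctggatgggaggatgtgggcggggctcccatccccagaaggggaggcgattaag
Bmpr1a, chr14:34502547-34502796, minus strand: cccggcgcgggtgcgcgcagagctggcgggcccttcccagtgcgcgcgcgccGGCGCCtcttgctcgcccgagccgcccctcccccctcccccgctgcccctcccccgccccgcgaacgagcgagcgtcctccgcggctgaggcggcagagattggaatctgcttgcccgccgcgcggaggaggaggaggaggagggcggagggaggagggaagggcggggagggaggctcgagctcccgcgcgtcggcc
Bmpr1b, the first of 3 listed starts, chr3:141982265-141982514, minus strand: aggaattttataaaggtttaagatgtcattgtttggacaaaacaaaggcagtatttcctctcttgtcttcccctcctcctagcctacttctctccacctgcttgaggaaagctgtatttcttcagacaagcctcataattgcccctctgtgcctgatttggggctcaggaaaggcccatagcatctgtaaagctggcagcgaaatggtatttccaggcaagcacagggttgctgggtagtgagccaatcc
The element stood 1 time in the Bmpr1a window, beginning 198 bases before the start, and its letters were not in the Bmp4 window or any of the 3 Bmpr1b windows. Of the other members with a window, Bmpr2 held it 1 time, beginning 105 bases before the start, and Smad6 did not hold it. Across the RefSeq promoter windows of the same length, 3149 of 32851 (9.59%) held it. GC content was 78.8% for Bmpr1a, 63.2% for Bmp4, and 46.8%, 52.8% and 56.4% for the 3 Bmpr1b windows. Over all windows the median was 52.4%, with quartiles of 45.2% and 61.2%. The windows of Bmpr1a, Bmpr1b and Bmpr2 lie inside the spans given below for their genes. The bases before the outermost annotated start of these genes were therefore not examined.

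The members first separated by level. Divided by the length of the gene's merged exons, the ctrl level was highest for Bmpr1a, at 29.5 ± 2.57 CPM per kb (SD, n = 2), followed by Bmp7 at 19.2 ± 12.6, Bmpr1b at 18.3 ± 2.39 and Bmpr2 at 13.1 ± 0.0789. Of these 4, Bmpr1a overlapped with Bmp7 and Bmp7 with Bmpr1b in their ctrl libraries, whereas Bmpr1b and Bmpr2 overlapped only once the cko libraries were included. The other 6 lay below 1 CPM per kb in ctrl, with Nog at 0.976 ± 0.00239, Smad7 at 0.856 ± 0.0232, Bambi at 0.292 ± 0.0123, Bmp4 at 0.280 ± 0.0395, Bmp2 at 0.201 ± 0.115 and Smad6 at 0.0234 ± 0.0139. Among these Nog, Smad7 and Bambi did not overlap with their next neighbour above, Bambi overlapped with Bmp4 and Bmp4 with Bmp2, and Smad6 lay below Bmp2 without overlap. Thus, of the 10 genes, the NSCs held abundant RNA for the 3 receptors and for 1 ligand. They held little RNA for Bmp2, Bmp4, Nog, Bambi, Smad6 and Smad7. Inhibitors outside the 10 genes ranged widely in ctrl. The antagonist gene Chrdl1 stood at 5.76 CPM per kb, and the antagonist gene Nbl1 at 33.1 and 19.1 in ctrl libraries 1 and 3. Tob1, an intracellular inhibitor gene, stood at 23.8 and 31.9, in the range of the receptors and Bmp7. Others were near or at 0, such as the antagonist gene Chrdl2 at 0 in all 5 libraries.

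**Figure D1:**
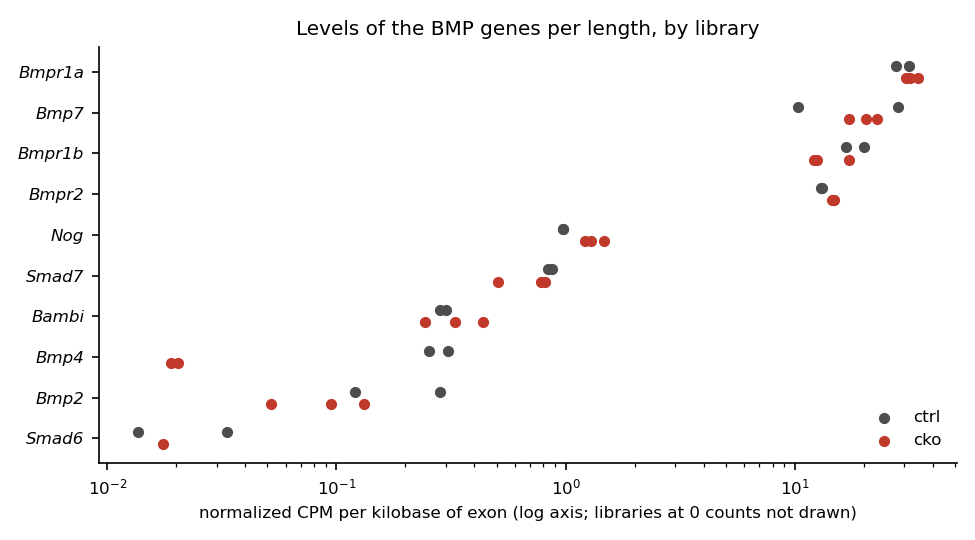
Level of each of the 10 BMP genes per length, as normalized CPM per kb of merged exons on a log axis, with 1 point for each library of ctrl and cko and libraries at 0 not drawn. Bmpr1a, Bmp7, Bmpr1b and Bmpr2 sit at 10 or more in ctrl, and the other 6 genes sit below 1 in ctrl.

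Bmp4 encodes a ligand of the dorsal midline that patterns the cortical hem and choroid plexus. The gene lies on the minus strand of chromosome 14 (chr14:46383520-46390669, GRCm38). Its level was 0.567 and 0.693 CPM in ctrl libraries 1 and 3 and 0, 0.0428 and 0.0459 CPM in cko libraries 1 to 3. Both ctrl libraries stood above all 3 cko libraries, from 13 counts each against 0, 1 and 1. Pooled, 26 counts in ctrl and 2 in cko gave a level 19.7-fold higher in ctrl, with an exact 95% interval of 4.92 to 171 that covers counting error only. In edgeR the log2 change was -4.08 (SE 0.75, 95% interval -5.82 to -2.33, adjusted p = 0.0127), a size that depends on the prior count because cko was near 0. DESeq2 gave a log2 change of -4.34 with no adjusted p. Exons of Gm15217, on the opposite strand, overlap 3.96% of its exon bases, and the strand setting of the counting is not stated.

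**Figure D2:**
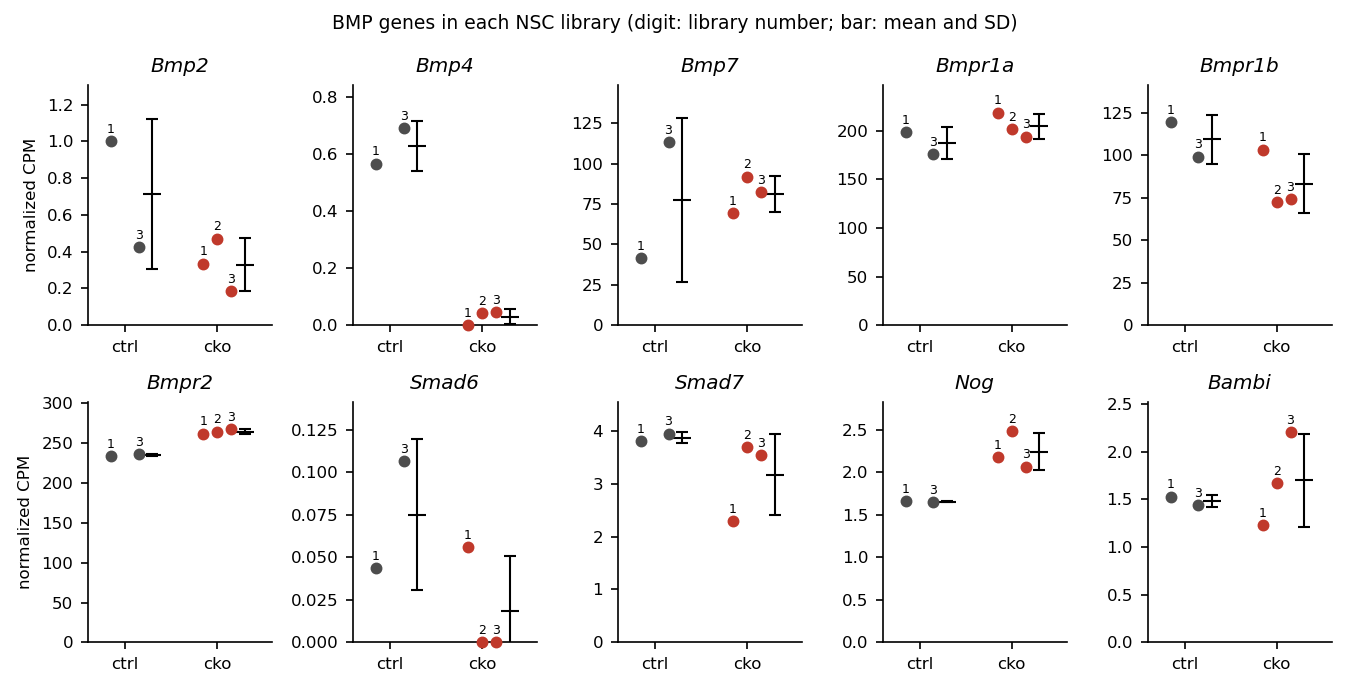
Normalized CPM of each of the 10 BMP genes in each library (points, with ctrl libraries 1 and 3 and cko libraries 1 to 3) with the group mean and SD. For Bmp4 the ctrl points lie at 0.567 and 0.693 and no cko point exceeds 0.0459, while the 2 ctrl points of Bmp7 lie far apart at 41.3 and 113.1.

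Bmp2 and Bmp7, the other ligands, were not called. Bmp2 (chr2:133552159-133562885, plus strand) gave 1.00 and 0.426 CPM in ctrl and 0.335, 0.471 and 0.184 CPM in cko, so cko library 2 overlapped with ctrl library 3. The log2 change was -1.12 (95% interval -2.49 to 0.25, edgeR adjusted p = 0.231), and the pooled counts were 31 in ctrl and 21 in cko. Bmp7 (chr2:172868012-172940321, minus strand) was the abundant ligand, at 41.3 and 113.1 CPM in ctrl and 69.5, 92.0 and 82.2 CPM in cko. All 3 cko libraries thus lay between the ctrl libraries, which differed 2.74-fold, a gap matched or exceeded in 4.40% of tested genes. The fitted difference was 0.08 (SE 0.36, 95% interval -0.76 to 0.92, edgeR adjusted p = 0.907). Its direction depended on the ctrl library used, since the log2 change was 0.98 (edgeR adjusted p = 0.00245) against ctrl library 1 alone and -0.49 (edgeR adjusted p = 0.0335) against ctrl library 3 alone. Bmp7 supplied 95.1% and 98.5% of the summed per-length level of the 3 ligands in ctrl and 99.3% to 99.6% in cko.

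Bmpr1a and Bmpr1b encode type I receptors, Bmpr1a being the broadly expressed one in progenitors. Bmpr1a (chr14:34410734-34503341, minus strand) was 199.0 and 175.9 CPM in ctrl and 218.8, 201.5 and 194.0 CPM in cko, and the ranges overlapped. An antisense gene, Gm17110, overlaps 4.57% of its exon bases. The log2 change was 0.13 (95% interval -0.08 to 0.34, edgeR adjusted p = 0.368). Bmpr1b (chr3:141837136-142169425, minus strand) was 119.4 and 99.2 CPM in ctrl and 103.2, 72.2 and 74.3 CPM in cko. Library 1 of cko lay inside the ctrl range and the other two cko libraries lay below it. The log2 change was -0.39 (SE 0.16, 95% interval -0.78 to -0.01), with an edgeR adjusted p = 0.145. Without cko library 1 it was -0.58 and was called lower (edgeR adjusted p = 0.0293). With no filter on low counts it was called as well (-0.40, edgeR adjusted p = 0.00113), but that fit took little account of each gene's own spread. There the SE of Bmp7 was 0.10, against 0.36 in the main fit, although its ctrl libraries differed 2.74-fold.

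The balance between the type I receptors was examined after their values had been seen. Bmpr1b made up 39.0% and 37.5% of the summed per-length level of Bmpr1a and Bmpr1b in ctrl and 33.4%, 27.6% and 29.0% in cko. The mean share was 38.3% ± 1.04 in ctrl and 30.0% ± 3.03 in cko (SD, n = 2 and 3), and the groups did not overlap. A two-sided exact permutation test gave p = 0.2, the smallest value that 2 against 3 libraries allow.

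Bmpr2 encodes the type II receptor selective for BMPs (chr1:59763400-59879014, plus strand). It gave 233.7 and 235.7 CPM in ctrl and 261.5, 263.9 and 267.6 CPM in cko, and every cko library stood above both ctrl libraries. Levels of the genotypes were separate in this direction for 25.4% of all tested genes. The difference was small, a log2 change of 0.17 (SE 0.07, 95% interval 0.01 to 0.33, edgeR adjusted p = 0.128). Per type I receptor, Bmpr2 stood at 0.253 and 0.296 in ctrl and at 0.281, 0.335 and 0.346 in cko, which overlapped (two-sided exact permutation p = 0.4).

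The secreted antagonist Nog, which binds BMPs and keeps them from their receptors, was detected at a low level in every library. Nog (chr11:89300638-89302332, minus strand) was 1.66 and 1.65 CPM in ctrl and 2.18, 2.48 and 2.07 CPM in cko. The genotypes were separate, cko higher, but the log2 change of 0.44 (SE 0.26, 95% interval -0.17 to 1.05) was not called (edgeR adjusted p = 0.289). Bambi, a receptor-like protein without a kinase (chr18:3507923-3516404, plus strand), gave 1.53 and 1.44 CPM in ctrl and 1.23, 1.67 and 2.20 CPM in cko, with the ctrl libraries inside the cko range. Its log2 change was 0.20 (95% interval -0.58 to 0.99, edgeR adjusted p = 0.719).

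Smad7, an inhibitory SMAD that blocks receptor activity and is itself induced by the pathway (chr18:75367529-75395935, plus strand), gave 3.80 and 3.94 CPM in ctrl and 2.29, 3.68 and 3.53 CPM in cko. The cko libraries stood below ctrl, which held for 24.2% of all tested genes. The log2 change was -0.28 (95% interval -0.90 to 0.34, edgeR adjusted p = 0.505), and -0.11 without cko library 1, the lowest. Smad6, the BMP-selective inhibitory SMAD (chr9:63953076-64022059, minus strand), had 1 and 2 counts in ctrl and 1, 0 and 0 in cko, within the limit of 3 counts that a count of 0 allows, so a difference was not detectable at this depth. Of the 9 tested members, 2 were separate and higher in cko (Bmpr2 and Nog) and 2 separate and lower (Bmp4 and Smad7). Over all tested genes, 25.4% were separate and higher and 24.2% separate and lower, so these counts were near the background.

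**Figure D3:**
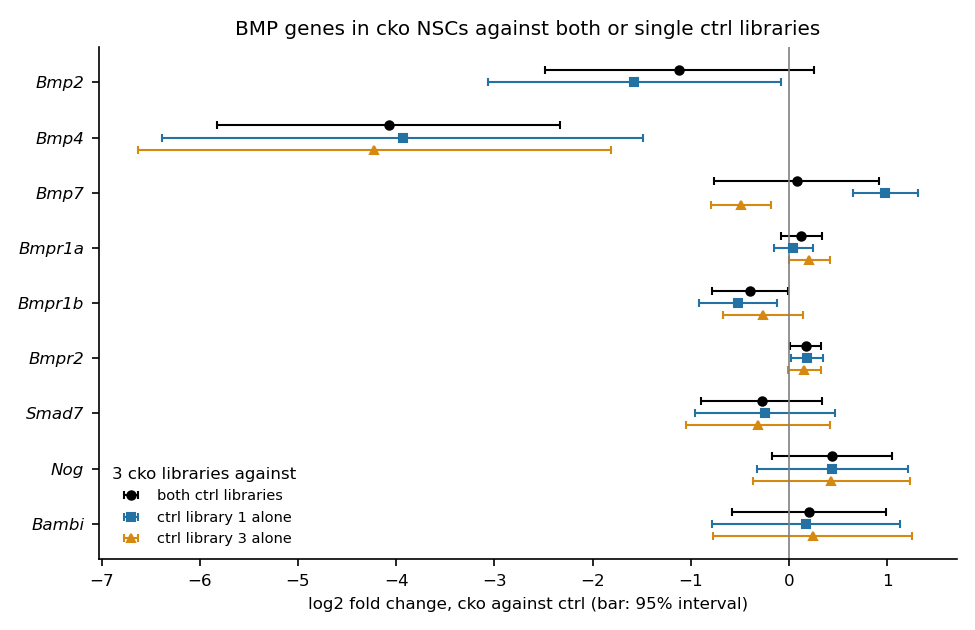
The log2 fold change of cko against ctrl with its 95% interval for the 9 tested BMP genes, from edgeR on all 5 libraries, with the estimates against each ctrl library alone drawn beside it (Bmp2 lacked the counts for ctrl library 3 alone). Bmp4 lies at -4.08 with an interval that stays below 0, and Bmp7 changes direction between the ctrl libraries (0.98 and -0.49).

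The balance of Bmp7 to the antagonist Nog alone was also set out after the values had been seen. Bmp7 RNA per Nog RNA, in levels per length, was 10.5 and 28.9 in ctrl and 13.4, 15.6 and 16.8 in cko. The cko libraries again lay between the ctrl libraries (two-sided exact permutation p = 0.8).

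Beyond the 10 members, 62 further pathway genes were listed by role, of which 58 are in the table and 39 had enough counts to be tested. Of these 39, 3 were called higher in cko (Id2, Chrdl1 and Twsg1), 4 lower (Rgma, Rgmb, Neo1 and Crim1) and 32 were not called. Against 7.86% called higher and 8.57% lower over all tested genes, these shares were near the background. The median log2 change was -0.07. Among the other ligands, 2 of the 9 in the table were tested and 0 called, with 1 at an unadjusted p under 0.05 in edgeR and 0 called by DESeq2. The 7 untested ligands had at most 10 counts in any library, and Bmp5 had 0 in all 5. Per length, Bmp3 was the most abundant of these other ligands, at 0.590 and 0.778 CPM per kb in ctrl and 0.348 to 0.515 in cko, where Bmp7 stood at 10.3 and 28.1 in ctrl. Bmp3, singled out after its values were seen, had a log2 change of -0.74 (SE 0.26, edgeR adjusted p = 0.0979).

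Co-receptors of the repulsive guidance molecule (RGM) family bind BMPs and present them to the receptors. Rgma was 522.8 and 388.2 CPM in ctrl and 334.7, 303.3 and 301.2 CPM in cko, a log2 change of -0.54 (SE 0.13, edgeR adjusted p = 0.0297). Rgmb was 25.2 and 27.9 CPM in ctrl and 21.1, 18.0 and 18.5 CPM in cko, a log2 change of -0.47 (edgeR adjusted p = 0.0369). Neo1, which encodes the RGM receptor neogenin, was 199.4 and 211.8 CPM in ctrl and 176.3, 159.3 and 167.9 CPM in cko, a log2 change of -0.29 (edgeR adjusted p = 0.0416). These 3 of the 7 tested genes among the other receptors and co-receptors were called lower, against 8.57% of all tested genes, and the genotypes were separate for each, as they were in this direction for 24.2% of all tested genes. The type I receptor gene Acvr1 was 20.0 and 18.5 CPM in ctrl and 15.9 to 18.6 CPM in cko, a log2 change of -0.13 (edgeR adjusted p = 0.492). The call for Rgma was lost without any 1 of the cko libraries, where its edgeR adjusted p reached 0.124. Those for Rgmb and Neo1 were lost without cko library 2 or 3 and without ctrl library 3, and for Neo1 also without cko library 1, with values up to 0.148 and 0.175.

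No transducer of the pathway was called by edgeR on all 5 libraries among the 5 tested, of which 2 had an unadjusted p under 0.05, both lower, and DESeq2 called 0. Smad1 was 76.3 and 65.4 CPM in ctrl and 67.0 to 70.2 CPM in cko, with a log2 change of -0.05 (95% interval -0.26 to 0.15, edgeR adjusted p = 0.714). Smad4 was 126.7 and 126.1 CPM in ctrl and 125.9 to 138.7 CPM in cko (log2 change 0.06, edgeR adjusted p = 0.594). These transducer levels overlapped between the genotypes. Smad5 was 267.7 and 355.2 CPM in ctrl and 241.6 to 260.5 CPM in cko, a log2 change of -0.30 (edgeR adjusted p = 0.127). Its value depended on the ctrl library, at -0.50 and called lower against library 3 alone (edgeR adjusted p = 0.0022) and -0.08 against library 1 alone. Smad9 was 3.62 and 3.73 CPM in ctrl and 3.25 to 4.32 CPM in cko (log2 change 0.01, edgeR adjusted p = 0.983). Among the 8 intracellular inhibitors, which include the Smurf ubiquitin ligases and SMAD phosphatases, edgeR called 0, with 1 at an unadjusted p under 0.05, and DESeq2 called 0.

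Of 11 secreted antagonists and modulators tested, 2 were called higher and 1 lower, against 7.86% and 8.57% of all tested genes. Chrdl1, which encodes a chordin-like BMP antagonist, was 36.5 and 41.4 CPM in ctrl and 56.1, 65.4 and 65.1 CPM in cko, a log2 change of 0.68 (SE 0.11, edgeR adjusted p = 0.0073). Twsg1, a chordin cofactor that can promote or oppose BMP activity, was 73.6 and 53.8 CPM in ctrl and 85.2, 92.9 and 87.9 CPM in cko (log2 change 0.47, edgeR adjusted p = 0.0492). Crim1, which encodes a transmembrane protein with chordin-type repeats that bind BMPs, was 29.9 and 40.0 CPM in ctrl and 19.7, 16.7 and 18.4 CPM in cko. It fell by 0.94 on the log2 scale (SE 0.15, edgeR adjusted p = 0.0074). Each of the 3 had separate genotypes, as did 25.4% of all tested genes in the higher and 24.2% in the lower direction. Chrdl1 and Crim1 had an adjusted p under 0.05 in all 11 alternative fits, the highest being 0.0498 and 0.0486. The call for Twsg1 was lost without any cko library and without ctrl library 3, where its edgeR adjusted p reached 0.169.

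The response genes include the Id genes, which encode inhibitors of basic helix-loop-helix factors and are induced by BMPs in many cells. Id2 was 50.8 and 40.0 CPM in ctrl and 78.3, 65.9 and 69.9 CPM in cko, a log2 change of 0.65 (SE 0.13, edgeR adjusted p = 0.0152). Id1 was 11.7 and 18.3 CPM in ctrl and 10.6, 11.9 and 11.2 CPM in cko (log2 change -0.42, edgeR adjusted p = 0.194). Id3 was 59.1 and 84.6 CPM in ctrl and 92.4, 90.4 and 87.5 CPM in cko (log2 change 0.33, edgeR adjusted p = 0.159). Of these 3 genes, Id2 was separate and higher in cko, as was Id3 without a call, and Id1 overlapped between the genotypes. Over all tested genes, 25.4% were separate and higher. Id4 was 79.7 and 27.1 CPM in ctrl and 84.2, 54.8 and 57.7 CPM in cko (log2 change 0.29, edgeR adjusted p = 0.663), with the ctrl libraries again far apart. Against ctrl library 3 alone Id4 was called higher (1.26, edgeR adjusted p = 0.00643), and against ctrl library 1 alone the log2 change turned to -0.28. Id1 was called lower against ctrl library 3 alone (-0.72, edgeR adjusted p = 0.0089) and gave -0.06 against ctrl library 1 alone. Id3 was called higher against ctrl library 1 alone (0.61, edgeR adjusted p = 0.00202) and gave 0.08 against ctrl library 3 alone. The values of these 3 genes thus rested on which ctrl library was used. Of the 6 response genes tested, Id2 was the 1 called, where 7.86% of all tested genes were called higher. The call for Id2 was lost without cko library 2 or 3, where its edgeR adjusted p reached 0.0691.

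**Figure D4:**
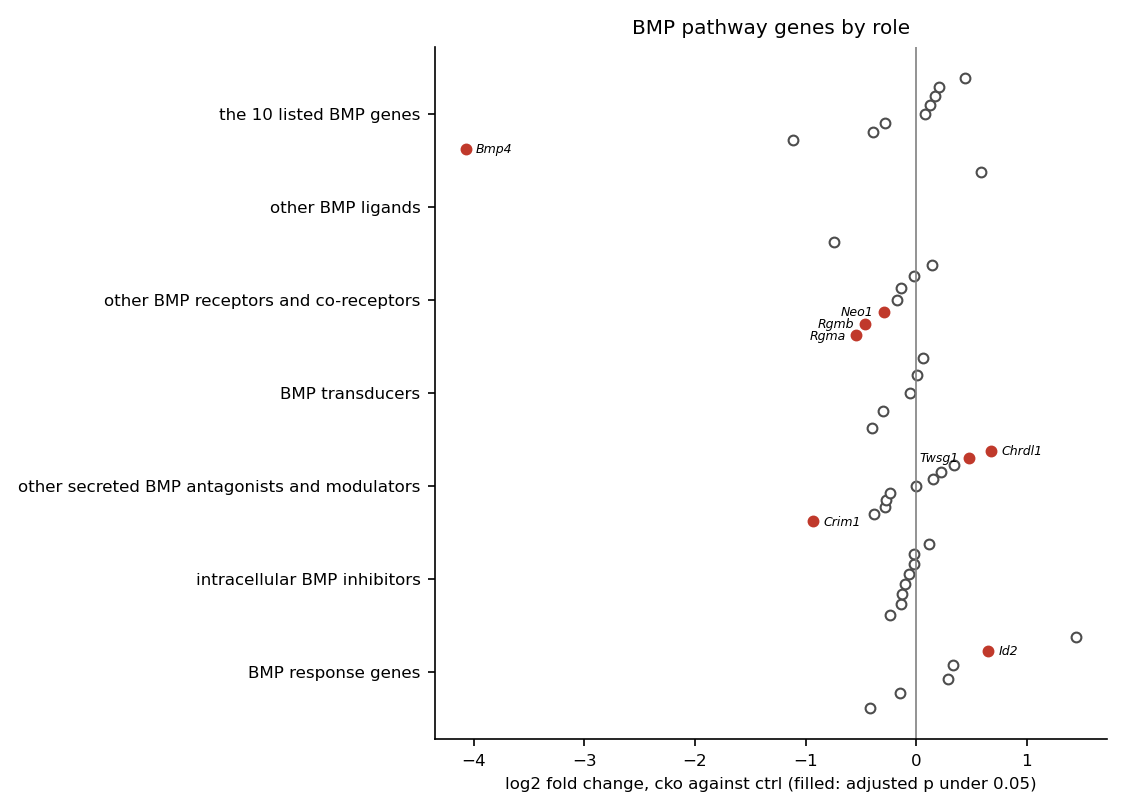
The log2 fold change of cko against ctrl for each tested BMP pathway gene, grouped by role, with filled points for an edgeR adjusted p under 0.05. Bmp4 is the filled point at -4.08, and the other filled points lie between -0.94 (Crim1) and 0.68 (Chrdl1).

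Markers of other cells moved with the genotype beside Bmp4 and the pathway genes. In bulk RNA, fewer cells of a type and less RNA per cell cannot be told apart. Of 12 oligodendrocyte lineage markers, 7 were called lower and 2 higher in cko, with a summed level of 3919 and 4579 CPM in ctrl and 3795 to 3931 CPM in cko. Gpr17, a receptor gene of committed oligodendrocyte precursors, was 702.6 and 741.3 CPM in ctrl and 170.7 to 286.2 CPM in cko. The 2 higher were the lineage transcription factor genes Olig1, at 1095 and 1350 CPM in ctrl and 1807 to 1992 CPM in cko, and Olig2, at 538.4 and 648.5 CPM in ctrl and 740.5 to 818.6 CPM in cko. Pdgfra, the receptor gene of oligodendrocyte precursors, was separate and higher without a call, at 209.8 and 145.2 CPM in ctrl and 226.9 to 267.4 CPM in cko. Of 10 astrocyte markers, 5 were called lower by edgeR, and the 10 summed to 5348 and 4512 CPM in ctrl and 2467 to 3397 CPM in cko. Gfap, the astrocyte intermediate filament gene, was 1007 CPM in ctrl library 1 and 177 CPM in ctrl library 3. In cko libraries 1 to 3 it was 297, 86.6 and 121 CPM, which overlapped with ctrl. Its log2 change of -1.82 was not called (edgeR adjusted p = 0.126). Of the 10 NSC markers, 4 were called higher in cko. The summed level of the 10 was 6757 and 5523 CPM in ctrl and 7868 to 8292 CPM in cko. Of 8 neuron markers tested, 2 were called higher and 1 lower. As background for these marker counts, 7.86% of all tested genes were called higher in cko and 8.57% lower, and 25.4% were separate and higher.

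Cells that make BMPs in the embryo were looked for in the same way. Of the 8 choroid plexus and cortical hem markers in the table, 4 were tested and 2 called lower, Otx2 and Aqp1. The other 2 tested, Wnt2b and Clic6, were not called, with log2 changes of -0.46 and 0.35. The 4 untested markers, Ttr among them, had at most 23 counts in any library. The 8 markers summed to 14.0 and 15.3 CPM in ctrl and 5.14 to 6.08 CPM in cko. Over all tested genes, 8.57% were called lower in cko and 7.86% higher. Otx2, a transcription factor of the choroid plexus, was 8.42 and 7.09 CPM in ctrl and 1.51, 2.36 and 1.42 CPM in cko. The 9 meningeal fibroblast markers in the table summed to 20.1 and 27.4 CPM in ctrl and 15.2 to 19.6 CPM in cko. Lum and Aldh1a2 were at 0 in cko, and in ctrl they had only 4 and 2 counts and 0 and 6 counts. Of the 9 markers, 4 were tested, 1 called higher and 1 lower. The higher one was Cyp1b1, which encodes a cytochrome P450 enzyme, at 6.37 and 5.54 CPM in ctrl and 10.6 to 14.1 CPM in cko (log2 change 1.10, edgeR adjusted p = 0.00943). The lower one was Foxc1, a transcription factor of the meninges, at 10.6 and 15.2 CPM in ctrl and 3.24 to 3.86 CPM in cko. Endothelial markers summed to 4.89 to 7.21 CPM over all 5 libraries and microglial markers to 0.230 to 1.44 CPM, and Cdh5, Cx3cr1 and Tmem119 were at 0 in all 5. The part of any of these cell types in the lower Bmp4 level was not tested.

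The genes whose pattern over the 5 libraries was most like that of Bmp4 were Gm28528, Tmem45a and Hpx, by the root mean square difference of gene-centred log2 CPM (0.214, 0.227 and 0.233). Gm28528 had 13 and 13 counts in ctrl and 0, 0 and 1 in cko. Tmem45a had 12 and 10 counts in ctrl and 0 in each cko library. Hpx, which encodes the haem-binding protein hemopexin, had 35 and 49 counts in ctrl and 4, 6 and 9 in cko. All 3 had few counts, as Bmp4 did. Their low levels in all 3 cko libraries follow from the way they were picked.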

How the data were processed

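NSC libraries were prepared with a SMARTER mRNA kit. Per the study's methods, clean reads were aligned to mm10 with HISAT2, whereas the submitters' processing notes name GRCm39. The counting tool, annotation and strand setting are not given in the sources used here. The authors deposited raw counts per gene, and 31836 of 32493 gene IDs were matched to names and GRCm38 positions in GENCODE. Genes were filtered with filterByExpr, scaled by TMM and tested with the quasi-likelihood test of edgeR 4.0.16 in R 4.3.3, cko against ctrl, on 5 libraries without covariates. DESeq2 1.42.0 (the study's tool), RLE size factors, other filters, the replicate number as a block, all 6 columns and each library left out were alternatives. Levels are CPM of TMM-scaled libraries. All 10 BMP genes are named, and of the other pathway genes those called in edgeR plus Id1 to Id4, Smad1, Smad4, Smad5, Smad9 and Acvr1. Bmp3, Bmp5, Nbl1, Tob1, Chrdl2, markers and ratios of members were named after their values were seen. The members and lists were chosen with earlier results of these data known. Counting intervals cover counting error only.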

Additional observations from a re-analysis of the deposited data

How the results depend on the processing

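The count of members called higher (0) was 1 with all 6 columns (Bmpr2) and 0 to 1 when 1 library was left out (Bmp7 without ctrl library 3). The count called lower (1) was 0 with DESeq2, which gave Bmp4 no adjusted p, 0 under a minimum of 10 counts per library, which left Bmp4 untested, 2 with no filter (Bmp4 and Bmpr1b), and 0 to 2 with 1 library left out. Bmp7 turned to -0.49 without ctrl replicate 1, and its log2 change ranged from -0.49 to 0.98 with 1 library left out. For the other pathway genes, the 3 called higher became 0 and the 4 called lower became 1 under the study's fold threshold, 5 and 8 with no filter, and 5 and 7 with all 6 columns. With 1 library left out they ranged from 1 to 4 higher and from 1 to 8 lower. With the replicate block 0 members were called higher and 1 lower (Bmp4, -4.40, adjusted p = 0.0267), and 2 other pathway genes were called lower, Rgmb, Neo1 and Twsg1 losing their calls. Same-numbered libraries correlated at 0.113 in their deviations over 16710 genes, from 2 pairs that the labels join only by number. Whether a pair shared a litter is not given. Where 1 ctrl library remained, it was assumed to vary like the others. The cause of these shifts was not tested, apart from fewer genes or samples where stated. The fit with no filter took little account of each gene's own spread, so its calls say little about the spread between these libraries. A search for miR-151 seed matches was not run. Few counts limit Bmp2, Bmp4 and Smad6 most.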
